A study of Mus musculus with 3 samples.

Results

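E13.5 stood apart from both outer stages at 389 protein-coding loci that were higher (3.09% of the loci tested), and at 141 that were lower (1.12%), than in the E10.5 and adult libraries. The RNA came from the heart ventricle of C57BL/6 mice (C57BL/6 J in the study's methods) at the embryonic days that name the E10.5 and E13.5 stages and at 8 weeks of age (adult), and 1 library of total RNA was sequenced per stage, so that no difference has a replicate check and no test is given. The study used these libraries to find long non-coding RNAs of the developing heart, and here they are read for transient expression of messenger RNAs. All 3 stages share the strain and carry no allele or treatment by the labels, which do not say how many animals or embryos went into a library, or their sex. Where 3 FPKM values follow each other, they are those of E10.5, E13.5 and the adult, in this order. Members were chosen among the 12569 protein-coding loci that reached 1 FPKM (fragments set against exon length and library size) in any library, out of 20117 protein-coding loci. A peak locus exceeded both outer stages by at least 1 in log2(FPKM + 1), and a trough locus lay below both by 1 or more. The margin of a locus is the smaller of its 2 differences on that scale, so it understates the change of low loci. Both differences use the E13.5 library, and whatever is particular to that library enters both.

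Between these embryonic days the mouse ventricle changes from a trabeculated tube lined by endocardium into a septated chamber with a compact wall. Cells that leave the epicardium become fibroblasts and vessel wall cells, the endocardial cushions are remodelled into valve leaflets, and coronary vessels spread over the ventricle. Matrix proteins, secreted Wnt modulators and retinoid-binding proteins are known from these mesenchymal tissues, whereas cardiomyocyte channels and metabolic enzymes are known for their increase towards the adult.

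By the same rule, E10.5 stood above both other libraries at 317 loci and below both at 261, and the adult stood above both at 1317 and below both at 2770. Of the peak loci, 235 were within 1 of each other at E10.5 and in the adult, in 138 the adult lay below E10.5 by 1 or more, and in 16 above it. Of the trough loci, 109 were within 1 at the outer stages, 29 were higher in the adult and 3 were lower. A margin of 2 or more was reached by 47 peak and 6 trough loci. The value listed is exactly 0 in at least 1 library for 28 peak and 3 trough loci, which are set apart below because an exact 0 in this table can be a failed estimate. All peak loci were at 1 FPKM or more at E13.5, and 92 of them passed the limit of 1 FPKM through E13.5 alone. Members were selected by these values, so the counts describe the rule and test nothing.

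**Figure D1:**
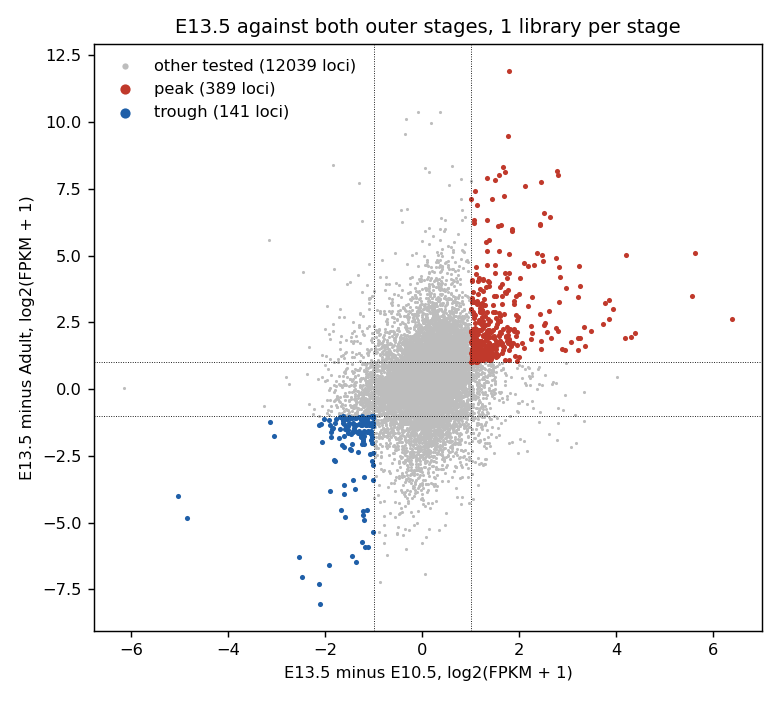
Difference between E13.5 and E10.5 (x axis) against the difference between E13.5 and the adult (y axis), both on the log2(FPKM + 1) scale, for the 12569 loci tested, 1 point per locus and 1 library per stage. Dotted lines mark differences of 1, the 389 peak loci lie beyond both at the upper right and the 141 trough loci beyond both at the lower left.

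Transcript length moved with the E13.5 library over all loci and not only over members. In the shortest length decile (292 to 1237 nt) the median difference between E13.5 and E10.5 was 0.54, and in the longest (7249 nt or more) it was -0.41. Against the adult the median difference fell from 0.93 to -0.05 over the same deciles, while the difference between the adult and E10.5 was -0.40 in the shortest and -0.41 in the longest. Peak loci made up 10.3% of the shortest decile and 0.318% of the longest, and trough loci 0.318% and 4.54%. The median transcript length was 1893 nt for peak loci, 6236 nt for trough loci and 3240 nt for all loci tested. The causes of this length trend were not tested. Differences were therefore also centred on the median of all tested loci of the same length decile. After centring, 187 loci were peaks (1.49%) and 217 were troughs (1.73%), of which 169 and 104 were members as deposited. The balance of peaks to troughs also turned with the scaling. It was 389 to 141 as deposited, 243 to 309 with median-of-ratios factors and 215 to 313 when the columns were set to equal sums without globin and mitochondrial loci. Stable members are those in the class as deposited, under both rescalings, with a pseudocount of 0.1 and after length centring. They number 144 of 389 peak loci (37.0%) and 104 of 141 trough loci (73.8%). All 141 trough loci stayed troughs under both rescalings and the smaller pseudocount, so length centring alone decided which of them are stable. Peak loci were also removed by both rescalings, so the shares of the classes cannot be compared.

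**Figure D2:**
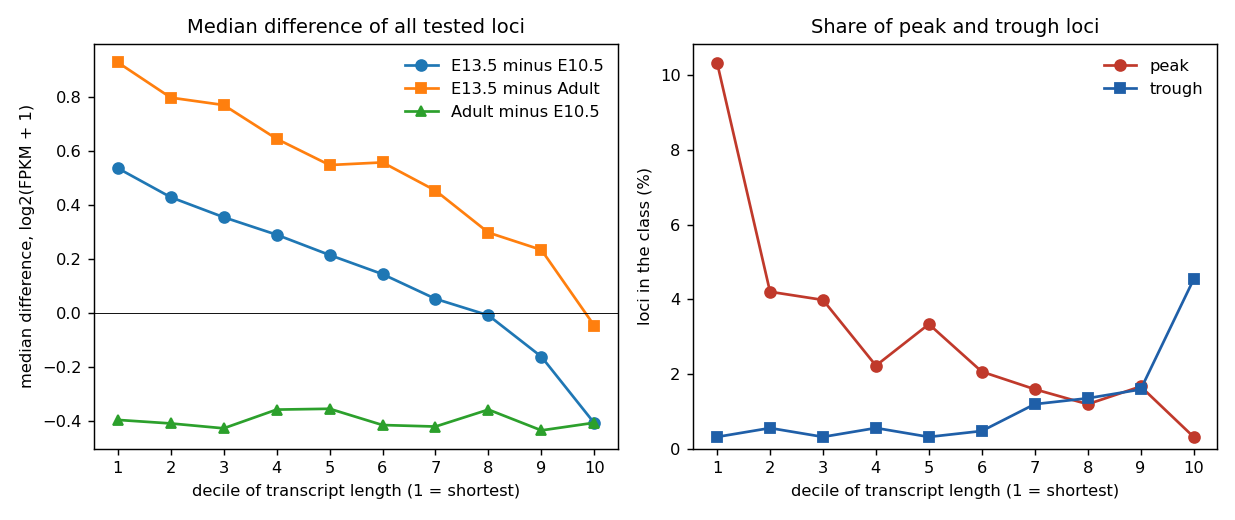
Median difference on the log2(FPKM + 1) scale (left) and share of loci in the peak and trough classes in percent (right) for the 12569 loci tested, by decile of the longest matched transcript. Both differences that involve E13.5 fall with length, while the adult minus E10.5 difference stays between -0.43 and -0.35.

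The smallest steps between low values give an estimate of depth. A transcript of 1 kb at 1 FPKM rests on about 26.7 fragments in the E13.5 library and 13.8 in each of the others. At that approximate depth the 95% exact Poisson intervals of E13.5 were apart from those of both outer stages for 387 of 389 peak loci and all 141 trough loci. Such intervals cover counting error only and not the variation between animals. The ventricular label was checked against markers. The ventricular light chain Myl2 was at 7789.8, 12217 and 11568 FPKM, and the atrial light chains Myl7 and Myl4 were at 2453, 1935 and 0.719 FPKM and 2164, 2439.9 and 1.42 FPKM, so that both embryonic libraries were high in them. The part of atrial tissue in these values was not tested. In bulk tissue, fewer cells of a type and less RNA per cell cannot be told apart, which holds for every result below.

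Genes of elastic fibres and of matrix assembly kept all of their peak loci under both rescalings, the smaller pseudocount and length centring. Of 22 loci tested from this list, 8 were peaks (36.4%, against 3.09% of all loci) and 0 were troughs. All 8 are thus stable members. The list's median difference was 0.95 to E10.5 and 1.67 to the adult, against 0.17 and 0.50 over all loci tested.

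Eln (elastin, chr5:134702596-134747254, minus strand), which encodes the core protein of the elastic fibre, was at 87.4 FPKM at E13.5, as against 0.866 at E10.5 and 6.86 in adults. In order of stage its counting intervals were 0.632 to 1.16, 85.6 to 89.3 and 6.17 to 7.61 FPKM, and E13.5 exceeded E10.5 by 5.57 and the adult by 3.49 on the log2 scale. The adult value lay above that of E10.5. Mfap4 and Mfap2, proteins of the microfibrils on which elastin is laid down, were at 2.38, 50.3 and 5.46 FPKM and at 8.33, 38.6 and 0.487 FPKM. Fbln5 (fibulin 5), which links elastin to microfibrils, was at 0.457, 15.1 and 2.60 FPKM. The enzymes Lox and Loxl1, which cross-link elastin and collagen, were at 1.12, 14.6 and 4.46 FPKM and at 5.85, 15.996 and 3.78 FPKM. Tnc (tenascin C), a matrix protein of remodelling mesenchyme, was at 2.97, 8.74 and 1.37 FPKM. For all of these the E13.5 value was the highest of the 3, while the order of the outer stages differed. In Eln, Mfap4, Fbln5 and Lox the adult exceeded E10.5, and Mfap2, Loxl1 and Tnc were higher at E10.5.

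Postn (periostin, chr3:54361107-54391041, plus strand), a secreted protein of cushion mesenchyme, valves and fibroblasts, had the highest E13.5 level of the list among its peak loci, at 188 FPKM at E13.5, as against 25.8 at E10.5 and 18.6 in adults. E10.5 and the adult were within 1 of each other and both lay far below E13.5 (margin 2.82). The microfibril genes Fbn1 and Fbn2 did not share the pattern. Fbn2, the fibrillin typical of embryos, was at 68.2, 23.6 and 0.513 FPKM, and Fbn1 was at 62.4, 26.5 and 27.1 FPKM, so both were highest at E10.5. Both have long transcripts, a class whose median was lower at E13.5 than at E10.5 over all loci.

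The promoter of Postn is shown because it had the largest margin among peak loci of the list that have a promoter window. The window holds a TATA box. The 250 bases before the start are from RefSeq on GRCm38.p6 (chr3:54360857-54361106, plus strand), written 5′ to 3′, and capitals mark TATAAA, which begins 26 bases before the start.
Postn: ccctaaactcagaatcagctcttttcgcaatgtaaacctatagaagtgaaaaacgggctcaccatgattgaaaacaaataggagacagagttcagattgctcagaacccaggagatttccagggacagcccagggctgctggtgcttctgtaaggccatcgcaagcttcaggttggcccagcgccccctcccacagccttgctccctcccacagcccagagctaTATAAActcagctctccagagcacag

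A secreted Wnt antagonist gene, Sfrp2, had the largest margin of all peaks, and other genes of the pathway were peaks as well. Wnt proteins are secreted signals read by Frizzled receptors, the Sfrp proteins and Frzb bind Wnt outside the cell, Dkk proteins act on the co-receptor, and R-spondins enhance the signal. Of 24 loci tested from the Wnt and R-spondin list, 6 were peaks (25%, against 3.09% of all loci), 0 were troughs, and all 6 are stable members. Its median difference was 0.71 to E10.5 and 1.55 to the adult.

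Sfrp2 (chr3:83766321-83774314, plus strand) led all members by margin (5.11). It was at 77.8 FPKM at E13.5, as against 0.600 at E10.5 and 1.28 in adults, with counting intervals, in order of stage, of 0.346 to 0.966, 75.5 to 80.2 and 0.889 to 1.77 FPKM. Both outer stages were near the limit of 1 FPKM and only E13.5 was far above it. Sfrp1 was at 11.4, 39.8 and 2.38 FPKM and Frzb at 2.14, 9.53 and 2.003 FPKM. Dkk2 was lower at all stages, at 0.709, 2.97 and 0.151 FPKM. Of the genes that carry the signal forward, the receptor gene Fzd1 was at 9.12, 27.95 and 1.55 FPKM and the R-spondin gene Rspo3 at 2.72, 10.6 and 0.288 FPKM. Unlike Frzb, whose outer stages were alike, Fzd1, Sfrp1 and Rspo3 had adult values below those of E10.5 by 1 or more. None of the 7 Wnt ligand genes tested from the list was a peak. With so few genes, finding no peak is little different from the share of peaks over all loci (3.09%). Wnt5a was at 21.5, 12.6 and 3.51 FPKM, Wnt2 at 2.25, 2.03 and 0.252 FPKM and Wnt9b at 0.600, 1.75 and 0.168 FPKM, and Axin2, a transcriptional target of the pathway, was at 1.48, 2.45 and 1.09 FPKM. Axin2 was highest at E13.5 without reaching a difference of 1. Outside the list, and found after the values were seen, the ligand gene Wnt16 was a peak at 0.163, 1.42 and 0.116 FPKM, and so were Apcdd1 (3.26, 11.99 and 0.940 FPKM) and Dact2 (0.583, 2.93 and 0.0782 FPKM), which encode inhibitors of the pathway. Apcdd1 and Dact2 are stable members and Wnt16 is not.

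The same window of Sfrp2, the peak locus of the Wnt and R-spondin list with the largest margin, is shown for comparison with Postn. This window holds none of the 6 motifs searched (listed further on). It spans chr3:83766071-83766320, plus strand, and no match says only that these letters are not in this window.
Sfrp2: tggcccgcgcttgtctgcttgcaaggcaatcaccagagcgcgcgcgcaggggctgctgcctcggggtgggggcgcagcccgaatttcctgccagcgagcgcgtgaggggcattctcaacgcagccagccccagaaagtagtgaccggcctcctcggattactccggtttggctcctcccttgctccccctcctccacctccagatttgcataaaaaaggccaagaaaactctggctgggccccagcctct

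**Figure D3:**
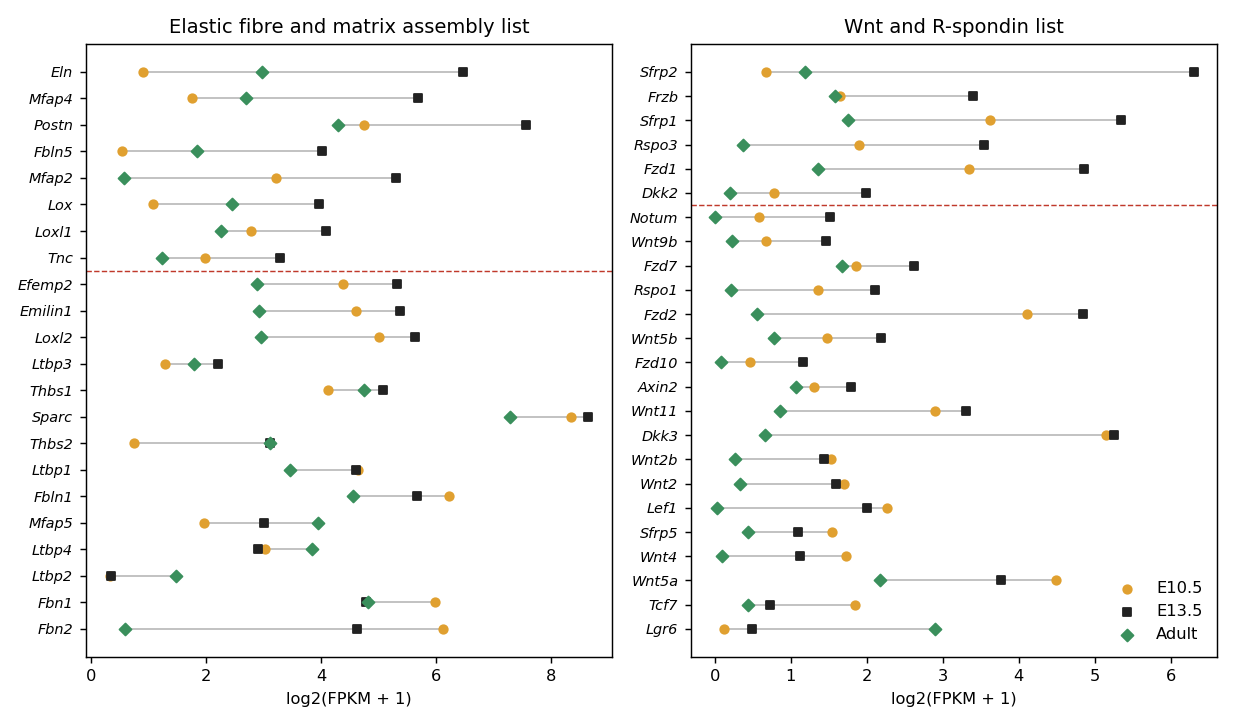
Level in log2(FPKM + 1) in the E10.5, E13.5 and adult libraries, for every tested locus of the elastic fibre and matrix assembly list (22 loci, left) and of the Wnt and R-spondin list (24 loci, right), ordered by margin. Loci above the dashed line are the 8 and 6 peak loci, and grey lines join the lowest and highest of the 3 values.

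Among BMP and TGF-beta genes, 4 of 22 loci tested were peaks (18.2%, against 3.09% of all loci) and 0 were troughs, and after length centring 2 were peaks and 1 a trough. Bmp4, a ligand of cushion and outflow development, was at 6.20, 17.9 and 2.22 FPKM, and Inhba, which encodes the activin A subunit, at 0.396, 2.97 and 0.553 FPKM. Both are stable members. The Id genes encode inhibitors of helix-loop-helix factors and are known targets of BMP signals. Id3 was at 57.9, 139.5 and 10.1 FPKM and Id1 at 24.4, 53.8 and 13.8 FPKM, and both left the class after length centring. Smad6, an inhibitor in the pathway, was at 21.4, 38.8 and 0.737 FPKM, with a difference to E10.5 short of the rule. Bmp10, the ligand of trabecular myocardium, was highest at E10.5, at 57.2, 26.2 and 0.0610 FPKM.

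Of 28 cardiac transcription factor loci, 4 were peaks (14.3%, against 3.09%) and 0 were troughs (against 1.12%), and the core cardiac factors were not among them. Isl1, a factor of the second heart field that is also found in outflow and nodal cells, was at 0.291, 3.76 and 0.0441 FPKM. It is a stable member. Shox2, a factor of the sinus node, was at 0.301, 2.69 and 0.297 FPKM, and Nr2f1, an atrial factor, at 0.393, 2.65 and 0.697 FPKM, and both left the class after length centring. These 3 peak loci stayed under 4 FPKM at E13.5. Tbx5 (14.5, 7.80 and 4.23 FPKM), Gata4 (63.6, 42.96 and 19.5 FPKM) and Nkx2-5 (46.8, 61.1 and 9.37 FPKM) were no members.

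Genes of retinoid handling, grouped after their values were seen, held both peaks and a trough. Crabp1, which binds retinoic acid in the cytosol, was at 25.3 FPKM at E13.5, as against 1.79 at E10.5 and 0.0641 in adults. Crabp2, of the same family, was at 0.955, 6.40 and 0.0908 FPKM. E13.5 was the highest library for both and the adult the lowest. Aldh1a1, a retinaldehyde dehydrogenase, went the other way and was a trough at 18.5, 3.47 and 10.2 FPKM, while Aldh1a2, the enzyme of embryonic retinoic acid synthesis, was at 14.7, 22.99 and 10.1 FPKM and was no member.

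Several connective tissue lists overlapped with these groups. Of 9 tested loci of the cartilage and valve primordium list, 4 were peaks (44.4%, against 3.09%). Col9a1, a chain of collagen IX, was at 17.97 FPKM at E13.5, as against 1.67 at E10.5 and 0.0235 in adults, and Col9a2 was at 1.20 and 6.06 FPKM in the embryonic libraries and is listed at 0 in the adult. Scx, a factor of tendon and valve progenitors, was at 1.67, 8.17 and 3.35 FPKM and Matn4 at 0.212, 2.29 and 0.158 FPKM. Scx and Matn4 left the class after length centring. The other tested genes of the list went both ways. Col2a1 (33.2, 7.70 and 0.00762 FPKM), Sox9 (3.56, 2.82 and 0.341 FPKM) and Hapln1 (127, 22.02 and 0.101 FPKM) were lower at E13.5 than at E10.5, and Col11a1 (2.32, 4.48 and 0.381 FPKM) and Comp (0.225, 1.06 and 0.124 FPKM) were higher. Acan stayed under 1 FPKM in all libraries. The list's summed level was 171, 73.1 and 4.71 FPKM, and Hapln1 supplied most of it at E10.5. Among 13 fibroblast loci, 5 were peaks (38.5%, against 3.09%) and 1 was a trough (7.69%, against 1.12%). Col1a2, a chain of collagen I, was at 30.4, 100.4 and 33.1 FPKM, and Lum (lumican) was at 6.31, 66.3 and 23.2 FPKM. Twist1 was at 9.16, 23.05 and 0.428 FPKM and Fbln2 at 25.8, 60.9 and 22.8 FPKM. Col1a2 and Postn are the stable members of the 5. Pdgfra, a receptor that marks fibroblasts, was at 11.8, 33.3 and 16.2 FPKM and fell just outside the rule. Fn1 (fibronectin) was the trough, at 33.6 FPKM at E13.5, as against 305 at E10.5 and 80.4 in adults, with the highest value at E10.5. The list's summed level was 677, 876 and 709.8 FPKM.

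The remaining loci with large margins had various roles. Tpt1, an abundant cytosolic protein linked to growth, was second among peaks by margin (4.21), at 2.81, 69.4 and 1.19 FPKM. Mstn (myostatin), a secreted inhibitor of muscle growth, was at 11.5 FPKM at E13.5, as against 0.346 at E10.5 and 0.135 in adults. Its E10.5 and adult values rest on about 12.8 and 5.005 fragments. Dynlt1a, a dynein light chain, was at 0.250, 16.98 and 0.780 FPKM. Psd was at 0.545, 13.8 and 0.0106 FPKM and Prss35 at 2.64, 24.5 and 0.0653 FPKM, and both were near 0 in the adult. Bex4, an X-linked gene, was at 24.7, 159 and 0.807 FPKM. With Tceal7 (2.42, 11.7 and 0.410 FPKM) and Tceal3 it makes up 3 peaks of 8 tested loci of the Bex and Tceal families (37.5%, against 3.09%). The metalloprotease families Adamts and Mmp gave 5 peaks of 24 loci (20.8%, against 3.09%), namely Mmp11, Mmp23, Adamts8, Adamts15 and Adamts18. Tceal3, Adamts15 and Adamts18 are not stable members. Both groups were chosen after their values were seen. Dynlt1a belongs to a cluster of near-identical copies, and Tpt1 has many processed copies, so how their fragments were assigned is uncertain.

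**Figure D4:**
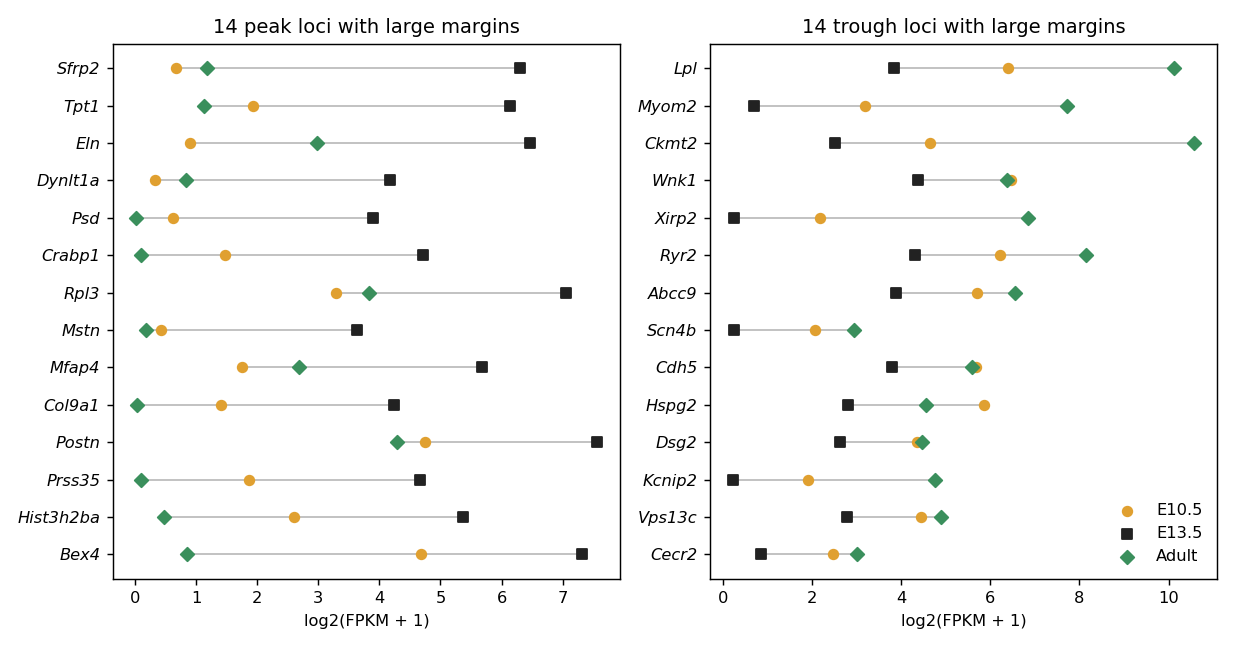
Level in log2(FPKM + 1) in the E10.5, E13.5 and adult libraries, for 14 peak loci (left) and 14 trough loci (right) among the 15 of each class with the largest margins, of loci of 1 gene above 0 in all libraries. In each row the E13.5 square lies outside the range of the other symbols, and grey lines join the lowest and highest values.

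Replication-dependent histone genes supplied more peaks than any other list. Their messenger RNAs are made in S phase, lack a poly(A) tail and are short, so that a total RNA library retains them. Of 52 loci tested, 29 were peaks (55.8%, against 3.09%) and 0 were troughs, and 17 of them stayed peaks after length centring, the same 17 that are stable members. The list's median transcript length was 466.5 nt, in the shortest length decile, of which 10.3% were peaks. Summed over the list, the level was 7190, 15738 and 206 FPKM in the 3 libraries in order of stage. The lists of proliferation genes with polyadenylated RNAs showed no peak. DNA replication genes (18 tested) and mitosis genes (18 tested) held 0 peaks and 0 troughs, against 3.09% and 1.12% of all loci. In lists of 18 loci, counts of 0 are little different from these shares. Their median differences were 0.20 and 0.35 between E13.5 and E10.5, against 1.07 for the histone list and 0.17 over all loci tested. After length centring the medians were -0.15 for DNA replication, 0.20 for mitosis and 0.60 for the histone list.

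Hist1h4c was at 1084 FPKM at E13.5, as against 199.6 at E10.5 and 13.9 in adults, Hist1h2bj at 22.4, 132 and 0.379 FPKM and Hist3h2ba at 5.06, 40.1 and 0.382 FPKM. Hist1h4f was at 388, 1239 and 7.34 FPKM. All were low in the adult, and E13.5 exceeded E10.5 by 1.67 to 2.76 on the log2 scale at these 4 loci. Set apart are the loci listed at 0 in the adult. Among peak loci listed at 0 in any library, 4 histone genes had the largest margins, namely Hist1h4b (36.8 FPKM at E10.5 and 260.5 at E13.5), Hist1h3b (41.1 and 289), Hist1h2af (38.9 and 216) and Hist1h2bf (16.8 and 62.6). The next was Sntg2, listed at 0 at E10.5, which had 0.0473 FPKM in the adult and 2.43 at E13.5. The copies of a histone type are nearly identical, so fragments could be split between them in a way that is not given in the sources used here.

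Promoters are shown for the Hist1 H4 and H2B peak loci of largest margin, among those with a window and above 0 in all libraries. Both hold CCAAT boxes, a motif that 20 of 24 histone peak windows and 34 of 42 windows of all tested histone loci held. The windows are from RefSeq on GRCm38.p6, with CCAAT (or ATTGG on the other strand) and TGACGTCA in capitals. Hist1h4c spans chr13:23698459-23698708 on the minus strand and has CCAAT 146 and 126 bases before the start. Hist1h2bj spans chr13:22042948-22043197 on the plus strand and has 5 CCAAT boxes, the nearest 75 bases before the start, and the cAMP element TGACGTCA 96 bases before it. Neither window holds TATAAA.
Hist1h4c: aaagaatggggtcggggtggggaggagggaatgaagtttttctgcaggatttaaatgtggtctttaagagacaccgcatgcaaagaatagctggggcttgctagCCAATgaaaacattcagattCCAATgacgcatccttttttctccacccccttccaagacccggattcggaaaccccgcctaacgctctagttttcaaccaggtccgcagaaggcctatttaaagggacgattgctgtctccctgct
Hist1h2bj: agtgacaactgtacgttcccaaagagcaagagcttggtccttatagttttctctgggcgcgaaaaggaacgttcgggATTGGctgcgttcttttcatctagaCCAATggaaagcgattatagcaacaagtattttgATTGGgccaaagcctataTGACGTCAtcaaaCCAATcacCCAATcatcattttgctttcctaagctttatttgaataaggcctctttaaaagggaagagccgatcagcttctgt

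Windows of 300 bases (250 before and 50 after the start) were found for 9502 tested loci of 1 gene, 262 of them peaks and 100 troughs. Both strands were searched for the TATA box TATAAA, the CCAAT box, the AP-1 site TGACTCA, the GATA site AGATAA, the E-box CACGTG and the cAMP element TGACGTCA. TATAAA was in 16.4% of peak windows, 7% of trough windows and 7.49% of all windows. Histone promoters held much of this. TATAAA was in 17 of 24 histone peak windows and in 26 of 42 windows of all tested histone loci, and in 10.9% of peak windows without histones. CCAAT was in 45.4% of peak, 33% of trough and 38.5% of all windows. CACGTG was in 7.25%, 9% and 10.3%. For TGACTCA the shares were 2.29%, 5% and 3.32%, for AGATAA 7.25%, 4% and 5.99%, and for TGACGTCA 5.34%, 2% and 3.28%. These matches are descriptions of letters and not of bound sites.

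Ribosomal protein genes, grouped after their values were seen, held 10 peaks and 1 trough among 74 tested loci (13.51% peaks, against 3.09% of all loci and 10.3% of the shortest length decile), and 7 loci of the family were peaks after length centring. Rpl3 was at 8.76, 132 and 13.2 FPKM, Rpl29 at 0.527, 127 and 19.7 FPKM and Rps2 at 2.16, 64.8 and 14.1 FPKM. The median differences of the family were 0.36 to E10.5 and 1.77 to the adult, and its median transcript was 740 nt long. Ribosomal protein genes have many processed copies, so the loci that stand out may share fragments with them. The trough was Rpl3l, the striated muscle paralogue of Rpl3, at 1.65, 0.169 and 68.8 FPKM, so that the paralogues ran in opposite directions between E13.5 and the adult.

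Blood and liver transcripts also reached the peak class. Of the 3 embryonic globin loci listed, 1 was a peak. Hbb-y, an embryonic beta globin, had the highest E13.5 level of all peak loci, at 15112 FPKM at E13.5, as against 4356 at E10.5 and 2.87 in adults. Hba-x (1057, 827 and 0.0946 FPKM) and Hbb-bh1 (1314, 366 and 0.0842 FPKM), the others, were lower at E13.5 than at E10.5. The alpha globin genes Hba-a1 and Hba-a2 are joined in 2 loci, at 382, 1533 and 129.6 FPKM and at 10.1, 199 and 51.9 FPKM. Trim10, a gene of maturing red cells, was at 2.36, 5.97 and 0.509 FPKM. Of 14 tested loci of the definitive erythroid list 3 were peaks (21.4%, against 3.09%), of which the first alpha globin locus alone stayed one after length centring. The list's summed level was 594, 3134 and 1633 FPKM, while the red cell membrane gene Slc4a1 (19.04, 17.002 and 0.563 FPKM) was no member. Of 8 tested hepatocyte loci 3 were peaks (37.5%). Alb (albumin) was at 0.119 and 2.20 FPKM in the embryonic libraries and is listed at 0 in the adult, Apoa2 was at 0.475, 4.51 and 1.36 FPKM and Ttr at 0.605, 3.09 and 0.0927 FPKM. None of the 3 stayed a peak after length centring. The summed level of all 18 listed hepatocyte loci was 16.6, 43.9 and 19.2 FPKM, and Apoc3 is listed at 0 at E13.5. The part of liver RNA in other results was not tested.

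Other lists contributed 1 or 2 peaks each. The peaks Col16a1 (1.84, 7.80 and 1.63 FPKM) and Col1a2 came from 22 collagen loci. The locus that joins Krt14, Krt17, Krt19 and Krt42 was at 18.1, 41.5 and 2.57 FPKM. Car3, a carbonic anhydrase of fat and muscle, was at 7.45, 28.1 and 0.447 FPKM, whereas the adipocyte gene Adipoq was at 0.359, 0.166 and 0.115 FPKM and Plin1 is listed at 0 in all libraries. The epithelial and thymic genes Nkx2-1, Sftpc, Foxe1 and Foxn1 are likewise listed at 0 in all libraries. Tnni2, a fast skeletal troponin, was at 17.5, 50.99 and 1.52 FPKM, while Myod1 is listed at 0 at E10.5 and in the adult and was at 0.0755 FPKM at E13.5. Tnni2 was the 1 peak among 5 tested loci of the fast skeletal muscle list (20%, against 3.09%). The other tested loci, Mylpf, Tnnt3, Actn3 and Acta1, were lower at E13.5 than at E10.5. The list's median difference was -0.46 to E10.5. Single peaks also came from the FGF receptor gene Fgfr2 (4.83, 11.2 and 0.279 FPKM), the guidance receptor gene Epha3 (4.45, 10.9 and 0.229 FPKM), the imprinted gene Nnat (36.7, 94.1 and 0.192 FPKM), the Notch target Nrarp (4.16, 9.42 and 3.77 FPKM), the AP-1 gene Jund (14.6, 30.6 and 2.28 FPKM) and the joined locus of Gp1bb and Sept5 (1.38, 5.80 and 1.85 FPKM). Of the loci named in this paragraph, Col16a1, Col1a2 and Car3 are stable members, and the other peaks are not. No peak or trough came from lists for macrophages (10 tested), neutrophils and mast cells (5), lymphocytes (1), neural crest derivatives (6) and thymus (1). The same held for heme synthesis (14), hypoxia (21), heat shock (15), cholesterol synthesis (15), glycolysis (17) and interferon response (16). In lists this short, counts of 0 are little different from the shares over all loci (3.09% and 1.12%). After length centring, heme synthesis and heat shock held 1 trough each and glycolysis 1 peak. Over the 41 lists, 23 held a peak and 7 a trough. A list held 76 of the 389 peak loci and 10 of the 141 trough loci, against 565 of all 12569 loci tested. The histone list alone supplied 29 of the 76 peaks.

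**Figure D5:**
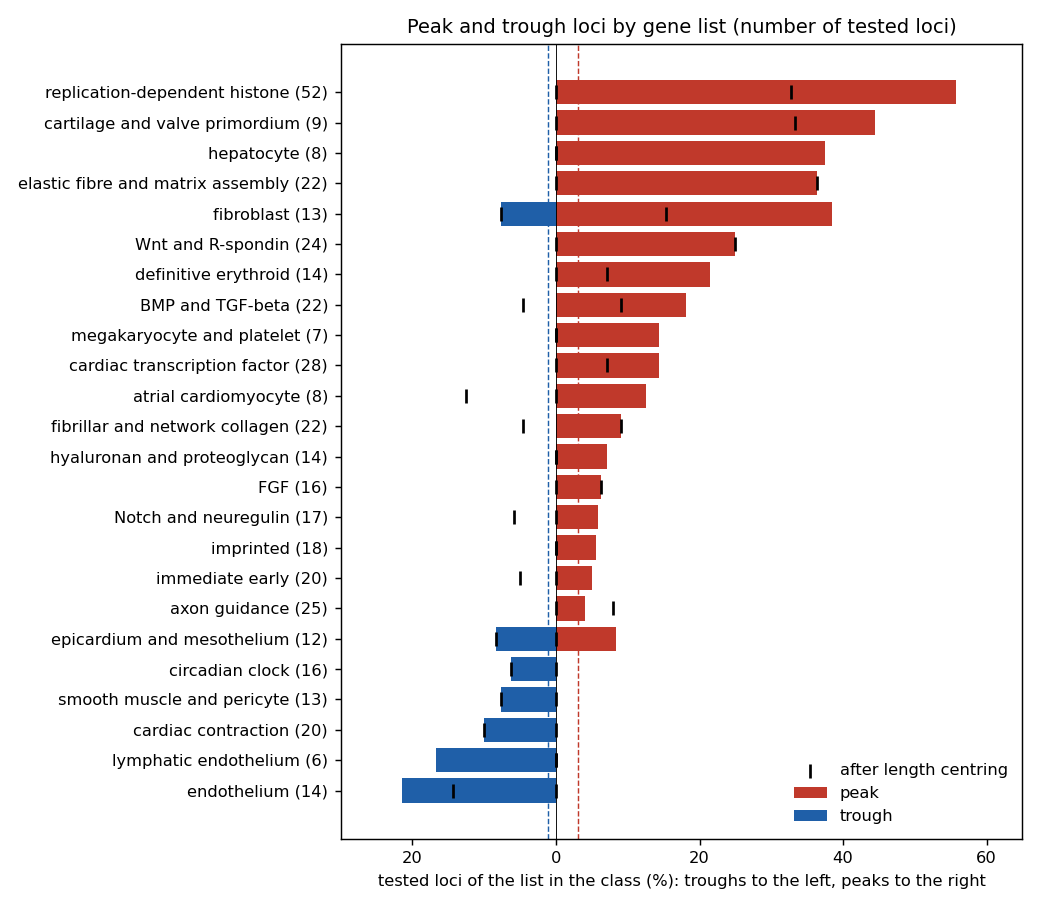
Share of the tested loci of each gene list that were peak loci (red, to the right) or trough loci (blue, to the left), in percent, for lists with at least 6 tested loci and a member, with the number tested in brackets. Dashed lines mark the share over all tested loci (3.09% and 1.12%), and black ticks mark the shares after length centring, which stay at 36.4% and 25% for the elastic fibre and Wnt lists and fall to 0 for hepatocyte genes.

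Trough loci were fewer and included genes of mature cardiomyocytes. Lpl (lipoprotein lipase, chr8:68880555-68906932, plus strand), which releases fatty acids for the heart, had the largest trough margin among loci above 0 in all libraries (2.55), at 13.3 FPKM at E13.5, as against 82.8 at E10.5 and 1116 in adults. In order of stage its counting intervals were 80.4 to 85.2, 12.7 to 14.05 and 1108 to 1125 FPKM. Ckmt2, the mitochondrial creatine kinase of striated muscle, was at 23.9, 4.76 and 1531 FPKM. Both were far higher in the adult than in either embryo, and lower at E13.5 than at E10.5. Myom2, a protein of the M-band, was at 8.20, 0.636 and 212 FPKM, and Xirp2, a protein of intercalated discs and myofibres, at 3.54, 0.194 and 114 FPKM. Ryr2, the calcium release channel of the sarcoplasmic reticulum, was at 73.1, 18.8 and 281 FPKM. Of 20 cardiac contraction loci these 2, Myom2 and Ryr2, were troughs (10%, against 1.12%) and 0 were peaks, and both are stable members. The list as a whole did not share their drop from E10.5. Of its 20 loci, 11 were higher at E13.5 than at E10.5, and 6 were below both outer stages. Its median difference was 0.30 to E10.5 and -0.91 to the adult, against 0.17 and 0.50 over all loci tested. The list's summed level was 22442, 31625.5 and 42174 FPKM.

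Channel and junction genes followed. Scn4b, a sodium channel subunit, was at 3.18, 0.191 and 6.72 FPKM, and Kcnip2, a subunit of the transient outward potassium channel, was at 2.74, 0.175 and 26.3 FPKM. Abcc9, the sulphonylurea receptor of the ATP-sensitive potassium channel, was at 51.4, 13.8 and 92.5 FPKM. Kcnip2 and Scn4b were below 1 FPKM at E13.5 and above 2 at both outer stages. Dsg2, a desmosomal cadherin, was at 19.4, 5.18 and 20.99 FPKM, alike at the outer stages. Wnk1, a kinase that regulates ion cotransport, was at 87.004, 19.9 and 82.6 FPKM, with outer stages alike and an E13.5 value far below them. Vps13c was at 20.8, 5.92 and 28.8 FPKM and Cecr2 at 4.54, 0.802 and 7.07 FPKM. All 15 trough loci with the largest margin, of loci of 1 gene above 0 in all libraries, stayed troughs after length centring and so are stable members. Of these, 13 have transcripts longer than the median of all loci.

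The promoter of Ckmt2, a trough locus with a transcript of 1486 nt, is also shown. The window is from RefSeq on GRCm38.p6 (chr13:91876886-91877135, minus strand), and capitals mark CCAAT on either strand, 145 and 69 bases before the start.
Ckmt2: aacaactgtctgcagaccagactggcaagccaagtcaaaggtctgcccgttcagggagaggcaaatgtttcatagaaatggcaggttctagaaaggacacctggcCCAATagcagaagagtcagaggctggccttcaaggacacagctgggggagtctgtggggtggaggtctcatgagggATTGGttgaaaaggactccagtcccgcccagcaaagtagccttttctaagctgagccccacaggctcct

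Some trough loci were far higher in the adult, and their embryonic values, small by the way they were chosen, are given as shares of the adult value. In the 28 trough loci above 0 in all libraries and higher in the adult than at E10.5 by 1 or more, the E10.5 value was 9.06% of the adult value at the median and the E13.5 value 2.19%. Among 35 loci at 50 FPKM or more in the adult and under 3% of it in an embryonic library, chosen after their values were seen, the medians were 2.22% and 0.917%. Lcn2, a gene of acute inflammation, was at 0.246, 0.298 and 157 FPKM without being a trough. Without loci higher in the adult, 112 trough loci remain.

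Endothelial genes gave 3 troughs of 14 tested loci (21.4%, against 1.12%) and 0 peaks. Cdh5 (VE-cadherin), the adhesion molecule of endothelial junctions, was at 12.9 FPKM at E13.5, as against 50.2 at E10.5 and 47.2 in adults. The VEGF receptor genes Kdr and Flt1 were at 48.1, 20.3 and 61.9 FPKM and at 18.7, 8.62 and 32.7 FPKM. In all 3 genes E13.5 was the lowest library, and Cdh5 was alike at the outer stages. Cdh5 and Kdr are stable members and Flt1 left the class after length centring. Pecam1 (46.5, 47.6 and 72.8 FPKM), Tek (46.5, 40.4 and 25.02 FPKM), Tie1 (30.8, 28.9 and 18.8 FPKM) and Emcn (68.3, 63.8 and 57.8 FPKM), which mark the same cells, were no members, and the summed level of the list was 510.4, 421 and 2194 FPKM, most of it in the adult from Cd36 (39.3, 34.7 and 1226 FPKM) and Fabp4 (12.7, 17.9 and 638 FPKM). Hspg2 (perlecan), a basement membrane proteoglycan, was at 57.5, 6.02 and 22.7 FPKM. Prox1, a factor of lymphatic endothelium that cardiomyocytes also use, was at 17.2, 7.49 and 20.5 FPKM and left the class after length centring. From the clock list, Nr1d1 was a trough at 2.71, 0.831 and 18.4 FPKM.

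Loci of several genes with a margin of 2 or more can only be named jointly. They were Hsd3b1 and Hsd3b6, steroid dehydrogenases, at 4.49, 26.2 and 0.0787 FPKM, Dhdds and Hmgn2 at 12.99, 96.5 and 20.8 FPKM, the first alpha globin locus, and the trough of Ly6a, Ly6c1 and Ly6c2 at 6.51, 0.704 and 269.5 FPKM. The trough loci listed at 0 are all at 0 at E13.5. Rock1, a kinase of the actomyosin cytoskeleton, was at 27.98 and 27.8 FPKM in the E10.5 and adult libraries, Ss18, a chromatin remodelling subunit, at 31.98 and 14.9, and Scgb1c1 at 1.30 and 29.05. Both Rock1 and Ss18 are broadly expressed genes, so their 0 may be a failed estimate, and no fold is given. Rock1, Ss18 and Scgb1c1 are nevertheless counted among the stable members.

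Among the most abundant peak loci were also Tmsb4x (thymosin beta 4), at 637, 1622 and 349 FPKM, and Atpif1, an inhibitor of the mitochondrial ATP synthase, at 521, 1166 and 395 FPKM. Both have short transcripts and neither is a stable member. Near the threshold, Golga7 (20.4, 41.7 and 11.7 FPKM), Med21 (60.2, 122 and 47.3 FPKM) and Pcdh18 (8.32, 17.7 and 3.16 FPKM) were just inside the peak rule, and none of these 3 is a stable member. Just outside it were Pdgfra, Lrp3 (0.745, 2.62 and 0.810 FPKM) and Tmem132c (1.04, 3.06 and 0.0747 FPKM). Of troughs, Xirp1 (31.7, 14.9 and 30.8 FPKM), Dysf (13.4, 5.07 and 11.2 FPKM) and Luc7l2 (60.5, 29.6 and 63.02 FPKM) were just inside, of which Dysf is a stable member, and Cd47 (16.7, 7.84 and 26.5 FPKM) and Palld (97.1, 21.5 and 43.9 FPKM) just outside.

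Beyond length, peak loci had a median of 5 exons, trough loci 16 and all tested loci 9. Single-exon loci made up 11.1% of peaks, 0% of troughs and 2.25% of all. The GC content of the transcripts had a median of 52.9%, 49.2% and 50%. Chromosome 13, which carries the large histone cluster, held 42 of the 389 peak loci (10.8%, against 3.90% of all loci), and 5% of the peak loci without histones. The median E13.5 level was 15.01 FPKM for peak loci, 3.90 for trough loci and 10.3 for all. Among the stable members, the median transcript length was 2164 nt for peaks and 4806 nt for troughs, so that the gap in length to all loci was smaller than in the whole set but remained.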

How the data were processed

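Total RNA of heart ventricle was sequenced with a stranded total RNA kit, 1 paired-end library per stage. Per the study's methods and the submitters' processing notes, the authors aligned the reads with TopHat2 (genome build mm10) and built transcripts with Cufflinks, run both with and without an annotation from UCSC, and versions, other options and the treatment of multiply mapped fragments are not given in the sources used here. The authors deposited FPKM values for 48626 merged loci and the exon positions (a unit of its own, base positions) of the merged transcripts, each with its nearest RefSeq transcript. 9 loci without transcripts in the annotation were not used.

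A locus was protein-coding where a transcript matched a RefSeq coding transcript. FPKM is not a count and each stage has 1 library, so differences of log2(FPKM + 1) were counted with no test and no p-value. Members, gene lists and tests were chosen with earlier results of these data known. Fragments were estimated from the lowest steps of FPKM times length of 27879 loci, and intervals are 95% exact Poisson intervals. Named were, among loci of 1 gene above 0 in all libraries, the 15 peak and 15 trough loci with the largest margin, the 5 highest of each, the 3 just inside and outside each threshold, up to 8 members per list, and separately the 5 with the largest margin among loci listed at 0 and joined loci with a margin of 2 or more. Some loci that the rule names are not reported here. Loci outside this rule are said to be chosen after their values were seen, or serve as list members for comparison. Alternatives changed the scaling, pseudocount, filter, size of the difference, joined loci, loci at 0, transcript length and depth. Python 3.11.15, pandas 2.3.3, numpy 2.4.6, scipy 1.17.1 and pysam 0.24.0 were used, and the code was tested on simulated data. Transcript GC content was read from GRCm38.p6 and promoter windows from RefSeq.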

Additional observations from a re-analysis of the deposited data

Results flagged for a closer look

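Loci without a protein-coding match lie outside the comparisons above. By the same rule, 41 spliced loci of this kind were higher at E13.5 than at both outer stages and 15 were lower, of 861 spliced loci tested. The balance was the other way over all 14341 loci of this kind, spliced or not. Of these, 189 were higher (1.32%) and 672 lower (4.69%), against 3.09% and 1.12% of the protein-coding loci. Snhg6, a host gene of small nucleolar RNAs, was at 62.5 FPKM at E13.5, as against 18.2 at E10.5 and 17.4 in adults. For 2610019E17Rik the values were 8.02, 27.1 and 4.59 FPKM, and for 1190002F15Rik 5.13, 24.9 and 0.629 FPKM. These 3 signals were singled out because they lie in data that the comparisons did not use. No group has enough libraries to look for a library far from its own group.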

How the results depend on the processing

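Of 92 recalculated counts that answer a comparison, 57 stayed within 1.5 times of the reported count and 35 moved further, and of 902 counts for single lists 768 and 134 did so. Of 316 margins of named loci, 275 stayed at or above 1, 41 came below 1 and 0 turned. Median-of-ratios scaling (factors of 1.07, 1.19 and 0.804 in order of stage) gave 243 peaks, 309 troughs, 2018 loci with the adult above both, 1719 with it below both, and 20 list loci that were troughs. Equal sums without globin and mitochondrial loci (0.934, 1.16 and 0.923) gave 215 peaks, 313 troughs, 510 loci with E10.5 above both, 161 with it below both, and 18 list troughs. A pseudocount of 0.1 gave 592 peaks, 329 troughs and 606 loci with E10.5 below both. A difference of 1.5 left 134 peaks and 27 troughs, 75 and 72 loci with E10.5 above and below both, 785 and 1463 with the adult above and below both, and 39 peaks and 4 troughs in lists. A difference of 2 left 47 and 6, 14 and 34, 478 and 807, and 16 and 1. With transcripts of 1000 nt or more, 43 list loci were peaks. Centring by length decile, chosen after seeing the data, gave 187 peaks, 217 troughs, 2130 and 1592 loci with the adult above and below both, and 47 list peaks. The fewer calls at larger differences follow from the rule, and the causes of the other moves were not tested. Both rescalings lowered E13.5 values relative to the outer stages. No paired analysis was possible because the labels give 1 library for each stage. Depth is approximate, and counting intervals do not cover variation between animals, dissections or libraries.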

Other observations

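Some stable members belong to no gene list and are described here as values, chosen after their values were seen. Transcription factor genes of mesenchyme were among the peaks. Osr1 was at 0.0561, 5.24 and 0.414 FPKM, Meox1 at 0.880, 23.8 and 3.51 FPKM and Foxp2 at 1.64, 7.96 and 1.71 FPKM. In all 3 the outer stages were low. Genes of secreted proteins included Ptn (pleiotrophin), at 18.6, 104 and 0.473 FPKM, Cthrc1, a collagen triple helix protein, at 6.78, 42.8 and 0.585 FPKM, and the neuropeptide gene Nts, at 0.137, 15.3 and 1.64 FPKM. Tnnt1, the slow skeletal troponin T, was at 78.8, 409 and 10.9 FPKM, the highest E13.5 level of these 7 genes.

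Among stable trough loci outside the lists, several are known from endothelium or its basement membrane. Vwf (von Willebrand factor) was at 11.4, 2.44 and 8.54 FPKM, Podxl at 35.7, 11.6 and 35.7 FPKM and Heg1 at 28.4, 9.08 and 28.04 FPKM. The laminin gene Lama5 was at 8.60, 2.39 and 14.9 FPKM. The hypoxia-inducible factor gene Epas1, which is abundant in endothelium, was at 6.67, 2.32 and 31.6 FPKM. For Podxl and Heg1 the outer stages were nearly equal, and all 5 genes have transcripts longer than the median of all loci. These 5 were picked from 104 stable trough loci, so they do not describe endothelial genes as a group. In the endothelium list 3 of 14 tested loci were troughs (21.4%, against 1.12% of all loci). Pecam1, Tek, Tie1 and Emcn, which mark endothelial cells, were no members.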
